A study of Homo sapiens with 3 samples.

Results

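The 38 genes described here belong to linked stress programs that answer a shortage of amino acids or a build-up of unfolded protein in the endoplasmic reticulum. They were chosen by name, with earlier results of these data known. Each was matched by its Ensembl identifier to 1 of the 58037 rows of the gene count table. All 38 were found, and all 38 had a mean of at least 1 CPM (counts per 1000000 counts, scaled to library size) over the 3 libraries. They fall into 4 lists by role: 12 genes of the ATF4 branch, 8 genes of amino acid synthesis, 7 amino acid transporters and 11 genes of the endoplasmic reticulum.

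When amino acids run short or proteins fail to fold, kinases of the cell phosphorylate the initiation factor eIF2alpha, bulk translation slows, and the mRNA of the transcription factor ATF4 is translated better. ATF4 then turns on genes of amino acid import and synthesis, and, under lasting stress, feedback and cell death genes such as DDIT3 and CHAC1. In the endoplasmic reticulum the sensors IRE1 (encoded by ERN1) and ATF6 raise chaperones and degradation factors through XBP1 and ATF6. ATF4 is controlled largely in translation, XBP1 by splicing and ATF6 by cleavage, which gene-level RNA counts do not show.

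The libraries were made from RWPE1 cells, an immortalized line of normal adult human prostate epithelium grown without serum. The 3 conditions, with 1 library each, were OLFM4-wild, OLFM4-knockout and a condition labelled OLFM4-active. OLFM4 encodes olfactomedin 4, a secreted glycoprotein found in progenitor-like epithelial cells. Per the methods, the reporter cells were made by transfection of CRISPR/Cas9 activation or paired-nickase knockout plasmids for OLFM4, selected with puromycin as stable lines and sorted by green fluorescent protein (GFP) before RNA extraction. Those methods describe activation plasmids also for the reporter cells with wild-type OLFM4. The study calls its knockout and wild-type reporter cells clones, so a difference between libraries may also be one between clones, which cannot be told apart here. In its RNA results the study sets knockout reporter cells against OLFM4-wild cells, without calling the latter reporter cells. A difference from OLFM4-wild may thus also be one of transfection, puromycin selection or sorting, which cannot be told apart either. What was done to the cells labelled OLFM4-active is not given in the sources used here.

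OLFM4 itself, on chr13:53028813-53052057 (GRCh38), was counted 214 times in the OLFM4-wild library, 131 times in the OLFM4-knockout library and 16 times in the library labelled OLFM4-active. Scaled to library size these are 11.8, 2.55 and 0.670 CPM. The OLFM4 level was thus lowest in the library labelled OLFM4-active, against its label, and every direction drawn below from that library rests on a label that its own target gene contradicts. The 3 libraries held 16309906, 58837147 and 23224216 counts in the same order, so the knockout library was the deepest, and 3 counts in a library correspond to 0.165, 0.0584 and 0.126 CPM. The summed level of 7 markers of basal prostate epithelium, KRT5 and KRT14 among them, stood at 24779, 53194 and 29422 CPM. The 5 luminal markers summed to 461, 424 and 306 CPM, and the 5 fibroblast markers to 34.0, 31.7 and 22.9 CPM. The 3 endothelial markers summed to 0.605, 0.136 and 0.0837 CPM. The summed leukocyte markers stood at 0.110, 0.565 and 0.251 CPM, and 4 of those 5 were at or under 3 counts in each library.

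With 1 library per condition there is no replicate spread, and no difference below carries a test. Values are CPM scaled with TMM factors, differences are log2 fold changes, and the bracketed ranges are 95% intervals that cover counting error only. A gene is counted as past the fold when its log2 fold change was above 1 or below -1, which is 2-fold. In bulk RNA, fewer cells of a type and less RNA per cell cannot be told apart. Both comparisons with OLFM4-wild share that library, so their values are set side by side and a match between them is not a second observation.

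Across the 38 genes, most differences were small, and a group of ATF4 branch genes stood lower in both other libraries than in OLFM4-wild. In OLFM4-knockout against OLFM4-wild the median log2 fold change of the 38 was -0.19, beside 0.10 over the 16600 genes that passed the level filter. Below -1 stood 7 members (CHAC1, VLDLR, STC2, DDIT3, SESN2, HERPUD1 and NUPR1), where 7.56% of all genes did. Above 1 stood SLC3A2 alone, where 5.77% of all genes did. For the library labelled OLFM4-active, set against OLFM4-wild, the median was -0.10, beside 0.05 over all genes. There, 7 members stood below -1 (CHAC1, SESN2, DDIT4, DDIT3, STC2, VLDLR and NUPR1), where 6.73% of all genes did, and HSPA5 alone stood above 1, where 3.78% did. Set directly against the library labelled OLFM4-active, the OLFM4-knockout library had 4 members below -1 (HSPA5, PCK2, VLDLR and ASNS) and DDIT4 above 1, against 3.39% and 2.95% of all genes, and a member median of -0.06 beside 0.08. Of these 4, VLDLR was at -0.90 when the libraries were thinned to equal depth, where CTH stood at -1.02 instead.

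**Figure D1:**
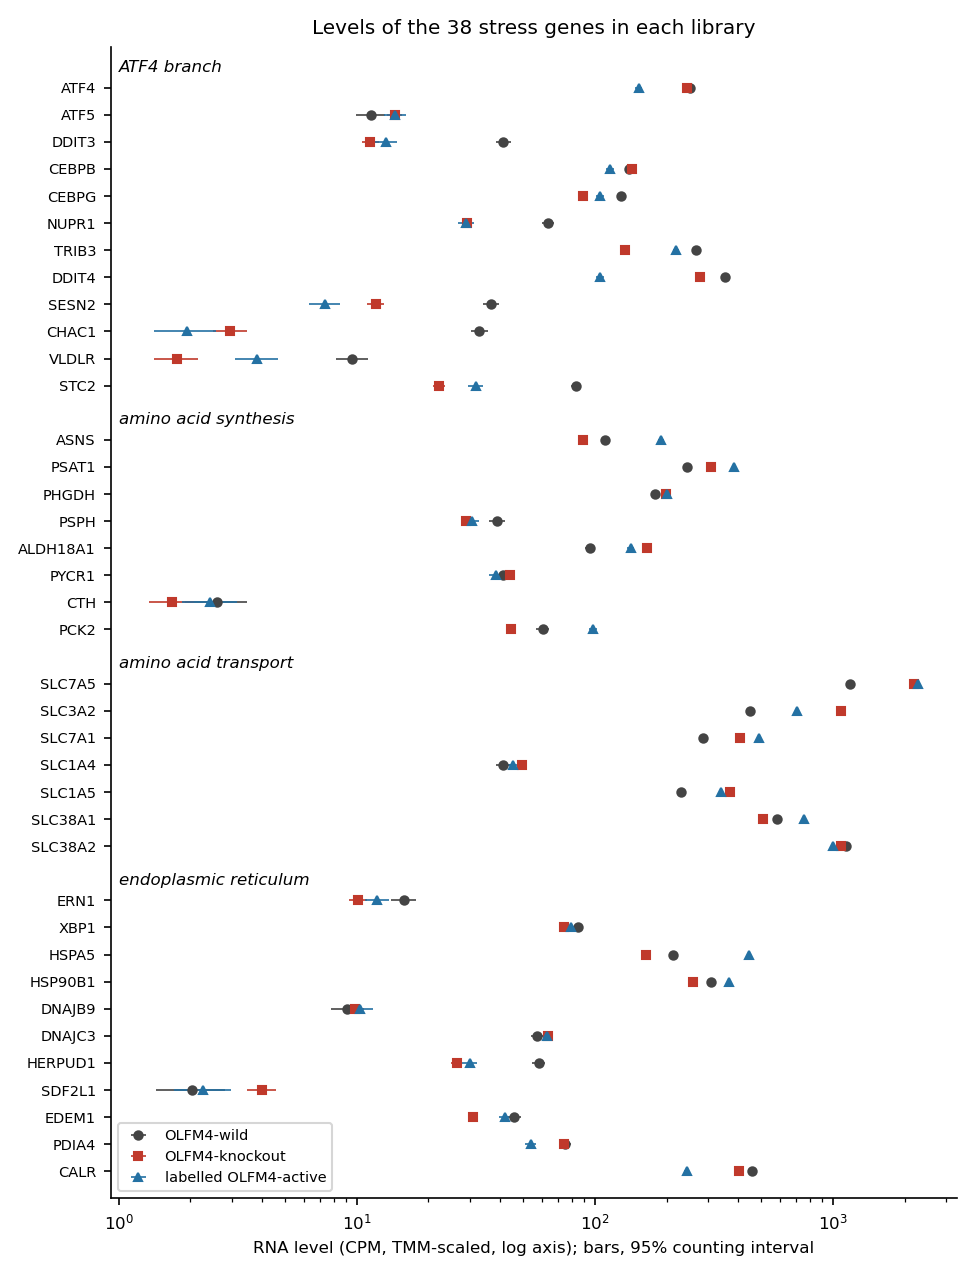
RNA level of each of the 38 genes (horizontal log axis, TMM-scaled CPM) in the OLFM4-wild (circles), OLFM4-knockout (squares) and OLFM4-active-labelled (triangles) libraries, grouped by role, with bars for the 95% counting interval and 1 library per condition. CHAC1, SESN2, DDIT3, STC2, VLDLR and NUPR1 sit to the right in OLFM4-wild and to the left in both other libraries, and SLC7A5 is at 1175, 2185 and 2270 CPM.

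The ATF4 branch showed the widest spread. For its 12 genes the log2 fold changes had a median of -1.06 in OLFM4-knockout and -1.23 in the library labelled OLFM4-active, both against OLFM4-wild. The lists were drawn up with earlier results of these data known. Other targets of ATF4, such as ASNS, were placed in other lists, so these medians describe this list alone. Of these 12 genes, 6 stood below -1 in the first comparison, where 7.56% of all genes did, and 7 in the second, where 6.73% did. None stood above 1, which in a list of this size is near the shares over all genes of 5.77% and 3.78%. Scaled by library totals the medians were -1.42 and -1.35.

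CHAC1, an enzyme that degrades glutathione and is a late target of the pathway, had the lowest fold change of the 38. It was counted 594 times in OLFM4-wild, 151 times in OLFM4-knockout and 46 times in the library labelled OLFM4-active, or 32.7, 2.94 and 1.93 CPM. Its level was 11.1-fold lower in OLFM4-knockout than in OLFM4-wild (log2 fold change -3.47, -3.74 to -3.21) and 16.8-fold lower in the library labelled OLFM4-active (-4.07, -4.55 to -3.65). Of the 16600 genes, 0.241% had a lower fold change than CHAC1 in the first comparison and 0.175% in the second. Both other libraries thus stood far below OLFM4-wild, and the difference between them was small and imprecise at 0.60 (0.13 to 1.12).

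ATF4, the transcription factor known to regulate these genes, stood close to its OLFM4-wild level in the knockout with TMM scaling. Its mRNA, from chr22:39519695-39522683, was at 251 CPM in OLFM4-wild, 243 CPM in OLFM4-knockout and 153 CPM in the library labelled OLFM4-active. The log2 fold change was -0.05 in OLFM4-knockout (-0.09 to 0.00) and -0.71 in the library labelled OLFM4-active (-0.78 to -0.65). Scaled by library totals the first of these was -0.40, so the near equality of ATF4 in OLFM4-knockout and OLFM4-wild depends on the scaling. Reads of ATF4 can also be lost to or gained from its 4 annotated pseudogenes, although only uniquely mapped reads were counted.

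DDIT3, which encodes the stress factor CHOP, was counted 748, 584 and 316 times in OLFM4-wild, OLFM4-knockout and the library labelled OLFM4-active, or 41.2, 11.4 and 13.2 CPM. Its log2 fold changes against OLFM4-wild were -1.86 (-2.01 to -1.70) and -1.64 (-1.83 to -1.45), or -2.21 and -1.75 by library totals. Both other libraries were thus low, and with TMM scaling close to each other. SESN2, a stress-induced inhibitor of mTORC1, stood at 36.5, 12 and 7.32 CPM in the same order, with log2 fold changes of -1.61 (-1.77 to -1.45) and -2.32 (-2.57 to -2.08). NUPR1, a small stress-induced chromatin protein, was at 63.6, 29.0 and 28.8 CPM, and its fold changes of -1.13 and -1.14 were nearly equal. By library totals they were -1.48 and -1.25, so this near equality depends on the scaling. All 3 genes were thus highest in OLFM4-wild, by more than counting error.

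STC2, a secreted glycoprotein of calcium and phosphate handling, stood at 83.5 CPM in OLFM4-wild, 22.1 CPM in OLFM4-knockout and 31.6 CPM in the library labelled OLFM4-active. VLDLR, a lipoprotein receptor induced by ATF4, stood at 9.58, 1.75 and 3.81 CPM, from 174, 90 and 91 counts. In both genes OLFM4-knockout was the lowest library, with log2 fold changes against OLFM4-wild of -1.92 (-2.03 to -1.81) for STC2 and -2.45 (-2.83 to -2.07) for VLDLR. The library labelled OLFM4-active lay between, at -1.40 for STC2 and -1.33 for VLDLR. Per kilobase of exon VLDLR had the lowest level of the 38 genes in every library, at 0.580, 0.106 and 0.231 CPM per kilobase.

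DDIT4 and TRIB3 differed mainly in 1 of the 2 comparisons each. DDIT4, a further brake on mTORC1 that also answers to hypoxia and glucocorticoids, was at 352 CPM in OLFM4-wild, 277 CPM in OLFM4-knockout and 106 CPM in the library labelled OLFM4-active. Its log2 fold change was -0.34 in OLFM4-knockout (-0.39 to -0.30) and -1.74 in the library labelled OLFM4-active (-1.80 to -1.67), and OLFM4-knockout stood 1.39 above the latter (1.33 to 1.45). TRIB3, a pseudokinase that feeds back on ATF4, was at 266, 134 and 220 CPM, so that here OLFM4-knockout was the low library. The fold change of TRIB3 was -0.99 in OLFM4-knockout (-1.05 to -0.94), on the edge of 2-fold and at -1.35 by library totals, and -0.28 in the library labelled OLFM4-active (-0.33 to -0.22).

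The remaining regulators of the branch stayed within 2-fold in every comparison. CEBPB, a partner of ATF4 in binding DNA, stood at 139, 143 and 116 CPM. CEBPG, another partner, stood at 129, 89.2 and 105 CPM, with log2 fold changes against OLFM4-wild of -0.53 and -0.29. ATF5, a mitochondrial stress factor related to ATF4, stood at 11.4, 14.5 and 14.5 CPM and was the only gene of this list above 0 against OLFM4-wild in both comparisons, at 0.33 (0.11 to 0.57) and 0.34 (0.09 to 0.60), although library totals put the first at -0.02.

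Ratios between members within a library do not depend on how libraries are scaled. Per 100 counts of ATF4, the OLFM4-wild library held 16.4 counts of DDIT3 (15.2 to 17.7), OLFM4-knockout held 4.68 (4.30 to 5.09) and the library labelled OLFM4-active held 8.66 (7.69 to 9.71). For CHAC1 the same ratio was 13.0 (11.95 to 14.2), 1.21 (1.02 to 1.42) and 1.26 (0.921 to 1.68). SESN2 gave 14.6, 4.94 and 4.79. Relative to ATF4 mRNA, these 3 genes were thus lower in both other libraries than in OLFM4-wild. TRIB3 did not share that order, with 106 counts per 100 of ATF4 in OLFM4-wild (102 to 111), 55.1 in OLFM4-knockout (53.5 to 56.7) and 144 in the library labelled OLFM4-active (138 to 150.1).

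**Figure D2:**
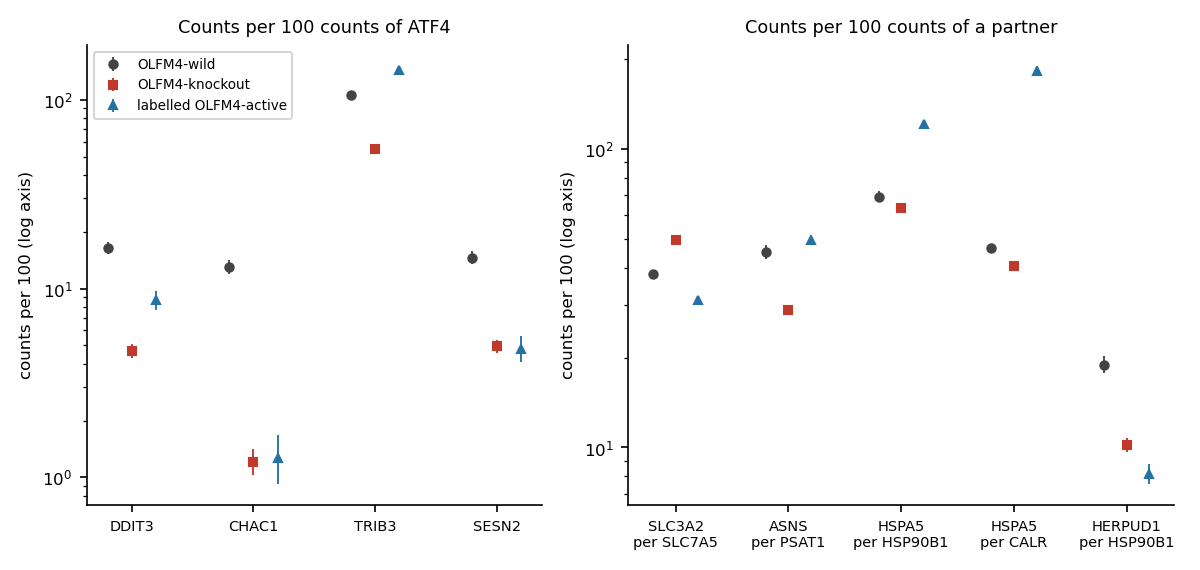
Counts of 1 gene per 100 counts of another within each library (vertical log axes), for 4 ATF4 branch genes per 100 counts of ATF4 on the left and for 5 further pairs on the right, with bars for the 95% counting interval. CHAC1 per ATF4 is 13.0 in OLFM4-wild (circle), 1.21 in OLFM4-knockout (square) and 1.26 in the library labelled OLFM4-active (triangle), while HSPA5 per CALR is 46.3, 40.5 and 182.

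To show what the promoters of these genes share, RefSeq windows from 250 bases before to 50 bases after each annotated start (GRCh38.p14) were searched on both strands. These starts need not be the outer end of the gene, and a gene can have several. A window was found for 35 of the 38 members, with 52 windows in all. NUPR1, PSPH and PYCR1 had no entry. The element bound by C/EBP and ATF4 dimers was searched first as TGATGNAAT, which 348 of all 35116 windows (0.991%) and 0 members held. The shorter TGATGNAA, whose search was added after that count was seen and which includes every match of the longer form, was in 1270 windows (3.62%) and in 9 members: ASNS, CEBPG, CHAC1, HERPUD1, SLC1A4, SLC1A5, SLC3A2, SLC38A1 and SLC7A1. A member with several windows had more chances of a match, so this count and the share per window are not on one scale. For the ATF4 branch, the stretches around the match in CHAC1 and CEBPG are shown because CHAC1 differed most among the libraries and CEBPG stayed within 2-fold. The match is in capitals, and in CHAC1 it reads on the opposite strand. Both stretches lie inside the annotated span of their gene, before a RefSeq start downstream of its outer end.
CHAC1, chr15:40953251-40953280, plus strand, match 209 bases before the start: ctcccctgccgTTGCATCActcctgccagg
CEBPG, chr19:33374060-33374089, plus strand, match 42 bases before the start: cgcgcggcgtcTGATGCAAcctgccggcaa
Both windows held the same 8 letters, one on each strand, while the fold changes of the genes in OLFM4-knockout against OLFM4-wild were -3.47 and -0.53. A match describes the letters only, and binding was not measured.

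**Figure D3:**
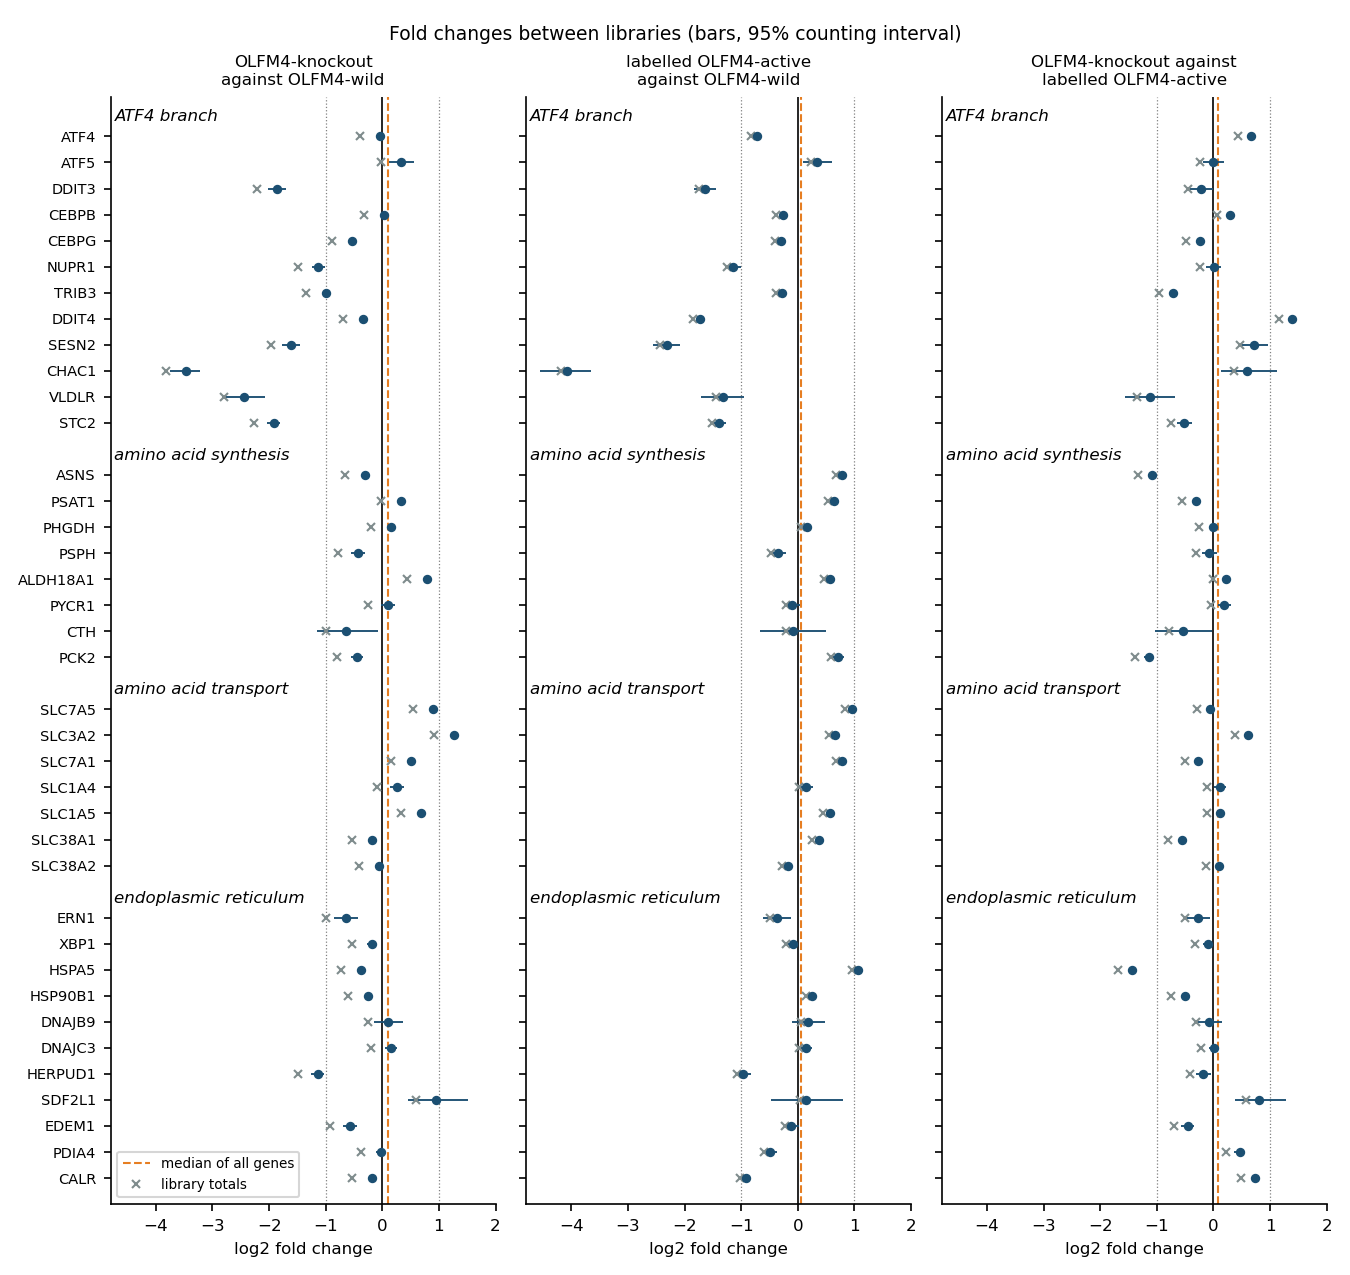
Log2 fold change of each of the 38 genes (horizontal axis) in the 3 comparisons of single libraries, with bars for the 95% counting interval, crosses for values scaled by library totals, a dashed line at the median of all 16600 genes and dotted lines at 2-fold. In both comparisons with OLFM4-wild the ATF4 branch reaches from CHAC1, at -3.47 and -4.07, to ATF5, at 0.33 and 0.34, and the crosses of the first panel lie 0.35 to the left of the points.

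None of the 8 genes of amino acid synthesis was past the fold against OLFM4-wild in either comparison. In a list of this size that is near the share over all genes, of which 5.77% stood above 1 and 7.56% below -1 in OLFM4-knockout, and 3.78% and 6.73% in the library labelled OLFM4-active. Their median log2 fold change was -0.11 in OLFM4-knockout (-0.46 by library totals) and 0.37 in the library labelled OLFM4-active (0.25 by totals). ASNS, which makes asparagine and is a standard ATF4 target, was at 111 CPM in OLFM4-wild, 89.3 CPM in OLFM4-knockout and 190 CPM in the library labelled OLFM4-active. PCK2, the mitochondrial enzyme that makes phosphoenolpyruvate, was at 60.3, 44.5 and 98.3 CPM. Both were highest in the library labelled OLFM4-active and lowest in OLFM4-knockout, and the distance from the former to the latter was -1.09 for ASNS (-1.15 to -1.03) and -1.14 for PCK2 (-1.23 to -1.06).

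The enzymes of serine synthesis split. PHGDH, which takes the first step, was at 179, 199 and 201 CPM, and PSAT1, which takes the second, at 245, 309 and 383 CPM. PSPH, which releases serine in the last step, was at 38.8, 28.8 and 30.4 CPM. PSPH alone of these was highest in OLFM4-wild, with log2 fold changes of -0.43 (-0.56 to -0.30) and -0.35 (-0.50 to -0.20). PSAT1 stood at 0.33 in OLFM4-knockout, which library totals put at -0.02, and at 0.65 in the library labelled OLFM4-active (0.60 to 0.70). PHGDH, at 0.15 and 0.17, changed sign in the first with totals (-0.20). PSAT1 has 4 annotated pseudogenes, as has ASNS, and PSPH has 1.

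In proline synthesis ALDH18A1, which makes the precursor, was higher in both other libraries, at 95.6, 166 and 142 CPM and log2 fold changes of 0.79 (0.72 to 0.87) and 0.57 (0.48 to 0.65). PYCR1, which takes the last step to proline and shares 408 exon bases with MYADML2 on the same strand, stood at 40.9, 43.8 and 38.3 CPM, with counting intervals that included 0 in both comparisons. CTH, which makes cysteine from cystathionine, had the lowest level of the list, at 2.59, 1.68 and 2.43 CPM from 47, 86 and 58 counts, and its fold change of -0.63 in OLFM4-knockout had an interval from -1.16 to -0.08.
The stretch of the ASNS promoter window that holds the searched letters is shown because ASNS separated OLFM4-knockout from the library labelled OLFM4-active. This stretch too lies inside the annotated span of its gene.
ASNS, chr7:97872458-97872487, minus strand, match 68 bases before the start: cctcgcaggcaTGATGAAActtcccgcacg

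Amino acid transporters had medians above that of all genes in both comparisons with OLFM4-wild. The median of the 7 was 0.51 in OLFM4-knockout (0.16 by library totals) and 0.56 in the library labelled OLFM4-active (0.44 by totals). Above 0 stood 5 of 7 in the first comparison, or 4 by totals, where 56.7% of all genes did, or 32.5% by totals. In the second, 6 of 7 did so under both scalings, beside 53.9% of all genes, or 44.1% by totals, and with 7 genes the counts in themselves say little about the list. Only SLC3A2 passed 2-fold, and only in OLFM4-knockout, where 5.77% of all genes stood above 1.

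SLC7A5 and SLC3A2 encode the light and heavy chain of the exchanger LAT1, which imports leucine and other large neutral amino acids. SLC7A5 (chr16:87830023-87869507) was counted 21349, 112183 and 54240 times, or 1175, 2185 and 2270 CPM. Its log2 fold changes against OLFM4-wild were 0.90 (0.87 to 0.92) and 0.95 (0.93 to 0.97). With TMM scaling both other libraries thus stood nearly equal and close to 2-fold above OLFM4-wild. By library totals the fold changes were 0.54 and 0.84, so this near equality depends on the scaling. Per kilobase of exon SLC7A5 had the highest level of the 38 genes in every library, at 247, 459 and 477 CPM per kilobase. SLC3A2 (chr11:62856004-62888880) was at 447, 1082 and 708 CPM, with log2 fold changes of 1.27 (1.24 to 1.31) and 0.66 (0.62 to 0.70). By library totals the first of these was 0.92, short of 2-fold. The 2 chains thus kept no fixed proportion, with 38.04 counts of SLC3A2 per 100 of SLC7A5 in OLFM4-wild, 49.5 in OLFM4-knockout and 31.2 in the library labelled OLFM4-active. SLC7A5 has 2 annotated pseudogenes.

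Of the other carriers, SLC7A1, which imports arginine and lysine, stood at 285, 406 and 490 CPM. SLC1A5, a glutamine and neutral amino acid exchanger, stood at 230, 369 and 339 CPM. Both were higher in each of the other libraries, with log2 fold changes of 0.51 and 0.78 for SLC7A1 and 0.68 and 0.56 for SLC1A5. SLC1A4, its relative, which carries alanine and serine, differed less, at 41.3, 49.3 and 45.4 CPM, and its fold change of 0.26 in OLFM4-knockout was -0.10 by library totals. The glutamine importers of the SLC38 family stood apart, with SLC38A1 at 581, 509 and 753 CPM and SLC38A2 at 1133, 1082 and 1005 CPM. SLC38A2, which is induced by amino acid shortage, was highest in OLFM4-wild, with log2 fold changes of -0.07 (-0.09 to -0.04) and -0.17. By library totals these were -0.42 and -0.29, so their size depends on the scaling.
SLC1A5 is shown as the transporter with the searched letters wholly before a RefSeq start. That start lies inside the gene, which spans chr19:46774883-46788594.
SLC1A5, chr19:46784893-46784922, minus strand, match 97 bases before the start: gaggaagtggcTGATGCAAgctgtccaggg
MYC, a transcription factor known to act on transporter genes, stood at 274, 510.3 and 486 CPM in the 3 libraries, and its part in these values was not tested.

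The 11 genes of the endoplasmic reticulum did not move as 1 group. Their median was -0.19 in OLFM4-knockout and -0.09 in the library labelled OLFM4-active, against -0.54 and -0.21 by library totals. HERPUD1 was below -1 in the first comparison and HSPA5 above 1 in the second, and the other 9 were within 2-fold in both. In a list of this size that is near the shares over all genes. Of all genes, 7.56% stood below -1 in the first comparison and 3.78% above 1 in the second. Of the folding sensors and their factor, ERN1 was at 15.7, 10.1 and 12.2 CPM and XBP1 at 84.6, 74.2 and 79.4 CPM. The deposited values are per gene, so that spliced and unspliced XBP1 cannot be separated.

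HSPA5, the chaperone BiP, stood out among the chaperones (chr9:125234853-125241382). It was counted 3859, 8391 and 10611 times, or 212, 163 and 444 CPM, so that the library labelled OLFM4-active was high and the other two were low. The log2 fold changes were -0.38 (-0.43 to -0.32) in OLFM4-knockout and 1.06 (1.01 to 1.12) in the library labelled OLFM4-active, the latter 0.95 by library totals. OLFM4-knockout set against that library gave -1.44 (-1.48 to -1.40). HSP90B1, the chaperone GRP94, followed the same order in a smaller range, at 307, 258 and 366 CPM.

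CALR, a calcium-binding lectin chaperone, ran the other way and was lowest in the library labelled OLFM4-active, at 458, 404 and 243 CPM. Its log2 fold change there was -0.91 (-0.96 to -0.87), or -1.03 by library totals. PDIA4, a disulfide isomerase, was also lowest there, at 75.2, 74.0 and 53.7 CPM. Within libraries, HSPA5 stood at 46.3 counts per 100 of CALR in OLFM4-wild (44.6 to 48.1), 40.5 in OLFM4-knockout (39.4 to 41.5) and 182 in the library labelled OLFM4-active (177 to 188). Over all settings, the log2 fold change of HSPA5 in that library ran from 0.93 to 1.09, and that of CALR from -1.04 to -0.89. These chaperones of the same compartment thus differed from OLFM4-wild in opposite directions in every setting tried.

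HERPUD1, a membrane protein of endoplasmic reticulum-associated degradation, was at 58.1, 26.3 and 29.8 CPM. It was lower in both other libraries, with log2 fold changes of -1.14 (-1.26 to -1.03) and -0.96 (-1.10 to -0.82). Per 100 counts of HSP90B1 it gave 18.9 counts in OLFM4-wild, 10.2 in OLFM4-knockout and 8.15 in the library labelled OLFM4-active. EDEM1, a lectin of the same degradation route, was at 45.7, 30.7 and 42.1 CPM and thus low in OLFM4-knockout. SDF2L1, a cofactor of BiP, went the other way at 2.04, 3.99 and 2.26 CPM, with a wide interval of 0.46 to 1.52 about its fold change of 0.96 in OLFM4-knockout, since OLFM4-wild held only 37 counts. The BiP cochaperones DNAJB9, at 9.14, 9.86 and 10.3 CPM, and DNAJC3, at 57.2, 63.7 and 63.1 CPM, were nearly level, and in OLFM4-knockout their fold changes of 0.11 and 0.15 changed sign by library totals.

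The promoters of 6 of these genes held a written-out endoplasmic reticulum stress element, which ATF6 is known to bind together with the CCAAT factor NF-Y. The element, CCAAT and CCACG with 9 bases between, was in 27 of the 35116 windows (0.0769%) and in 4 members: HSPA5, HSP90B1, CALR and XBP1. The second form, ATTGG and CCACG with 1 base between, was in 19 windows (0.0541%) and in HERPUD1 and SDF2L1. Here too the counts of members and the shares per window are not on one scale. These stretches are shown because genes that hold the same letters differed in direction. Capitals mark the letters of the element, and CGTGG before ATTGG or CCAAT is the element read on the opposite strand. Both stretches of HSP90B1 lie inside the annotated span of that gene.
HSPA5, chr9:125241386-125241414, minus strand, 66 bases before the start: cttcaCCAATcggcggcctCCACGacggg
HSP90B1, chr12:103930211-103930239, plus strand, 194 bases before the start: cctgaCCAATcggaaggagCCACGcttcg
HSP90B1, chr12:103930316-103930344, plus strand, 89 bases before the start: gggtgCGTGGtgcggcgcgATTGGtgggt
XBP1, chr22:28800598-28800626, minus strand, 52 bases before the start: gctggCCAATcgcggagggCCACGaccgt
CALR, chr19:12938364-12938422, plus strand, 225 bases before the start: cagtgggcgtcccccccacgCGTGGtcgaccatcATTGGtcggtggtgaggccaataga
SDF2L1, chr22:21642094-21642144, plus strand, 188 bases before the start: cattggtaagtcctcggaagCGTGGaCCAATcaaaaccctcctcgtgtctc
Among the 4 genes with the first form, the log2 fold change in the library labelled OLFM4-active ran from -0.91 in CALR through -0.09 in XBP1 and 0.25 in HSP90B1 to 1.06 in HSPA5. In OLFM4-knockout all 4 were lower than in OLFM4-wild, at -0.18 in CALR, -0.19 in XBP1, -0.25 in HSP90B1 and -0.38 in HSPA5. Of the 2 genes with the second form, HERPUD1 was lower and SDF2L1 higher in OLFM4-knockout than in OLFM4-wild.

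HERPUD1 was the 1 member whose window held both the letters of the second stress element and those of the C/EBP-ATF core, so the 250 bases before its start are shown whole. The capitals mark, in order, the core on the opposite strand, 176 bases before the start, and the stress element, 117 bases before it.
HERPUD1, chr16:56931892-56932141, plus strand: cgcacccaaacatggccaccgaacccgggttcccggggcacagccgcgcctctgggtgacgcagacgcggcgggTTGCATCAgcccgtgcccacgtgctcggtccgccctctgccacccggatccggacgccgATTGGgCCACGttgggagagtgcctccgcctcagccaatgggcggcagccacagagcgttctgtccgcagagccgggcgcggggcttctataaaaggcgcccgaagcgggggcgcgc
Neither the state of this promoter nor the binding of a factor was measured in these libraries.

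A further 53 genes of the same pathways, in 3 lists, were set beside the 38. Of these, 52 passed the level filter, and FGF21 had 0 counts in each library. Their median log2 fold change was -0.08 in OLFM4-knockout and 0.09 in the library labelled OLFM4-active, with 1 above and 4 below 2-fold in the first, where 5.77% and 7.56% of all genes were, and 3 above and 3 below in the second, where 3.78% and 6.73% were. These counts lie near the shares over all genes. None of the 9 genes around eIF2alpha, its kinases and its phosphatase was past the fold in any comparison. EIF2AK2, the kinase PKR, came nearest at -0.95 in OLFM4-knockout (-1.01 to -0.88). EIF2AK3, the kinase PERK of the endoplasmic reticulum, was at 19.2, 19.6 and 17.7 CPM.

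Among 16 other ATF4 targets, GDF15, a secreted stress cytokine, was the lowest in the library labelled OLFM4-active and the second lowest in OLFM4-knockout, each against OLFM4-wild. It was counted 185, 63 and 35 times, or 10.2, 1.23 and 1.47 CPM, with log2 fold changes of -3.04 (-3.49 to -2.63) and -2.78 (-3.36 to -2.27). ATF3, at 22.0, 12.4 and 10.8 CPM, and GADD45A, at 31.4, 17.6 and 14.4 CPM, were likewise highest in OLFM4-wild. SLC7A11, the cystine importer, ran against them at 135, 203 and 317 CPM, with 1.23 in the library labelled OLFM4-active (1.16 to 1.30). BCAT1, which starts the breakdown of branched-chain amino acids, was counted 8, 2 and 92 times and passed the level filter through the library labelled OLFM4-active alone, with log2 fold changes against OLFM4-wild of -3.26 (-6.77 to -1.17) and 3.05 (2.09 to 4.38). ALDH1L2, of mitochondrial folate metabolism, stood at -1.35 in OLFM4-knockout (-1.85 to -0.85) and CBS, which makes cystathionine, at 1.47 in the library labelled OLFM4-active (0.94 to 2.07), where CBS is uncertain since it has the near-identical copy CBSL. Of the 28 genes of the ATF6 and XBP1 axis, SEC61B, a subunit of the translocon, stood above 1 in OLFM4-knockout (1.15, 1.01 to 1.28) and DERL3, a degradation factor, below -1 (-1.04, -1.51 to -0.57).

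**Figure D4:**
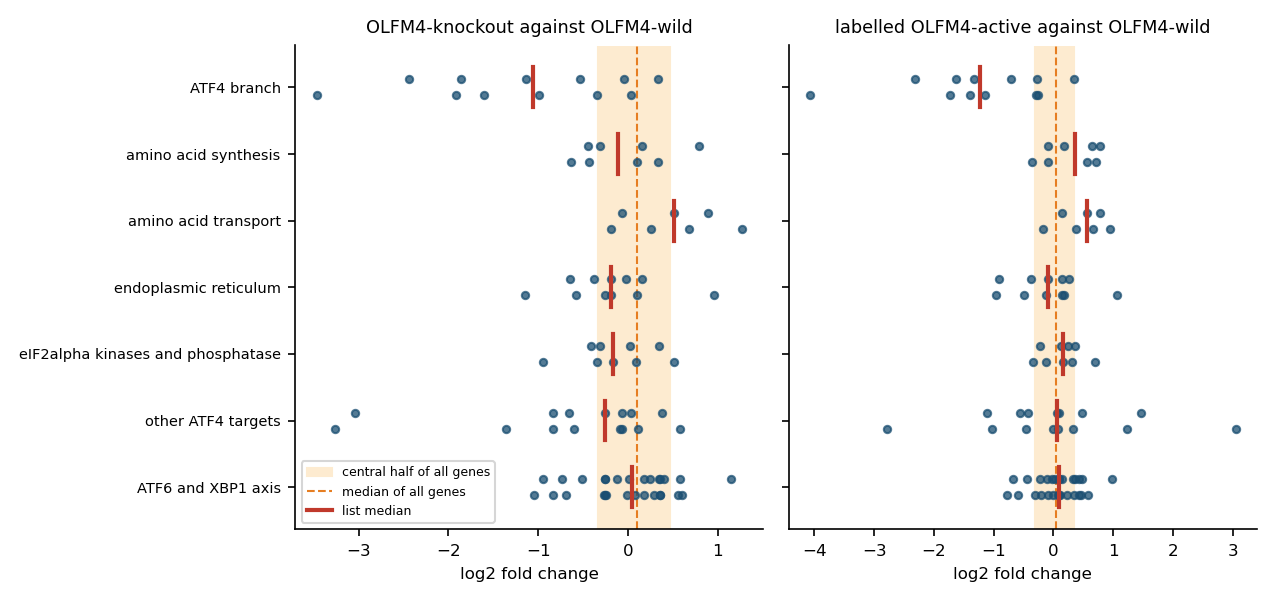
Log2 fold change (horizontal axis) of every gene that passed the level filter in the 4 member lists and the 3 lists of other pathway genes, in OLFM4-knockout and in the library labelled OLFM4-active, each against OLFM4-wild; the short bars are list medians, the dashed line is the median of all genes and the band spans the quartiles of all genes. The median of the ATF4 branch, at -1.06 and -1.23, lies left of the band in both panels, and that of the transporters, at 0.51 and 0.56, lies at its right edge or beyond it.

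The values of OLFM4-knockout against OLFM4-wild also varied with gene length over the whole table. With all genes split by exon length into 3 bins of near equal size, the median log2 fold change was 0.26 in the bin of the shortest, 0.14 in the middle bin and -0.06 in the bin of the longest. For the 13, 14 and 11 members in these bins the medians were -0.05, -0.37 and -0.19, and the part of gene length in the members' values was not tested. In the library labelled OLFM4-active the medians of all genes were 0.06, 0.04 and 0.05. Together the 38 genes took 0.825% of the counts in OLFM4-wild, 0.756% in OLFM4-knockout and 0.910% in the library labelled OLFM4-active.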

How the data were processed

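RNA was measured in 3 libraries of RWPE1 cells, 1 per condition. The authors deposited raw counts per gene, which they made from paired-end reads of ribosomal RNA-depleted, stranded libraries with cutadapt, HISAT2 on GRCh38 and featureCounts, as uniquely mapped, reversely stranded pairs. Of 58037 genes, 56993 (98.2%) matched GENCODE version 44, used for positions and exon lengths. Library sizes were scaled with TMM factors of edgeR 4.0.16, and voom (limma 3.58.1, R 4.3.3) gave the log2 CPM with an offset of 0.5 counts. The remaining steps ran in Python 3.11.15 (scipy 1.17.1, pandas 2.3.3, numpy 2.4.6, matplotlib 3.10.9). The level filter was a mean of at least 1 CPM. With 1 library per condition no test was fitted and no p-value is given. Intervals are conditional Clopper-Pearson intervals at 95%, and the code was run on simulated Poisson counts with known library sizes. Such counts hold counting error only, so that run says nothing about scaling or spread between clones, cultures or libraries. All 38 members are named, besides OLFM4, MYC and those of the other pathway genes that were past the fold or define their list. EIF2AK2, EIF2AK3 and FGF21 were named after their values were seen. The members and lists were chosen with earlier results of these data known. Promoter sequences are from RefSeq. A planned look at protein ends was not run. The alternatives were library totals, DESeq2 1.42.0 size factors, upper quartile factors, centring on the median of all genes, totals without the 10 most abundant genes, offsets of 1 and 5 counts, thinning to 16309906 counts, and other level filters.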

Additional observations from a re-analysis of the deposited data

How the results depend on the processing

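The count of members below -1 stayed within 1.5 times its value of 7, 7 and 4 in the 3 comparisons under all 10 alternatives, although not with the same genes throughout. TRIB3 was past -1 in OLFM4-knockout against OLFM4-wild in 5 of 9 settings (lowest -1.35, with totals), and HERPUD1 and CALR in the library labelled OLFM4-active in 3 and 2 of 9 (-1.08 and -1.03 with totals). With libraries thinned, CTH stood at -1.05 in the first comparison and at -1.02 between the other two libraries, where VLDLR was lost at -0.90. The median of the 38 in OLFM4-knockout against OLFM4-wild, -0.19, was -0.54 with library totals, -0.45 with totals without the 10 most abundant genes, -0.29 when centred on the median of all genes and -0.28 with upper quartile factors. Between OLFM4-knockout and the library labelled OLFM4-active the median of -0.06 was -0.30 with totals and -0.19 with totals without the 10 most abundant genes. Single genes decided the counts above 1: with totals SLC3A2 (0.92) left 0 members above 1 in OLFM4-knockout, and HSPA5 left 0 in the library labelled OLFM4-active with totals (0.95) and with totals without the 10 most abundant genes. Over 8 alternatives of scaling, offset and depth, no member that was past the fold changed sign, while 8 others did so in OLFM4-knockout against OLFM4-wild, 0 in the library labelled OLFM4-active compared with OLFM4-wild, and 7 between the other two libraries. By construction, another scaling moves every gene of a comparison by the same amount. No paired analysis was possible because each condition has 1 library, and no library could be left out.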
